A study of Homo sapiens with 40 samples.

Results

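This section describes what 24 hours at the highest level of BKM120 did to gene expression in A2058 cells. A2058 is an established human melanoma line. BKM120 (buparlisib) is a small molecule that inhibits the class I isoforms of phosphoinositide 3-kinase (PI3K). The comparison was between the 4 arrays of the BKM120 level labelled IC90 (max) and the 4 arrays of cells given the solvent DMSO, which are 8 of the 40 arrays in the series. The other arrays used here came from BKM120 at the levels labelled IC30 and IC50, from GDC0941 (pictilisib, another class I PI3K inhibitor) at IC90 and from BEZ235 (dactolisib, an inhibitor of PI3K and of the kinase mTOR) at IC90, with 4 arrays each. All groups shared the same cell line, the same growth medium with 10% FCS and a single dose given for 24 hours. Which molar doses these levels stand for, and in which assay they were set, the labels do not say. The replicates are labelled biological, but nothing says that they came from separate cultures, so the p-values measure only how far these samples of 1 line spread, which may be technical. Arrays carry no read depth, and the number of arrays limits the precision.

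PI3K makes a lipid signal at the plasma membrane that activates the kinase AKT. AKT in turn keeps FOXO transcription factors out of the nucleus and feeds the growth regulator mTORC1. Cells pass from G1 into DNA replication when cyclin E and E2F transcription factors switch on replication genes, and they enter mitosis when cyclin B and the kinases CDK1, PLK1 and Aurora A become active. The mRNAs of mitotic genes peak in G2 and mitosis, under the FOXM1 and B-MYB factors and the MuvB complex, which binds a short promoter element called CHR. BKM120 is known from biochemical and structural work to bind tubulin at high concentrations. Genes of mitosis, of the centrosome and of tubulin were therefore listed together with the pathways that lie downstream of PI3K.

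Of the 11865 genes tested, 2047 rose and 2050 fell at an adjusted p under 0.05 (limma, Benjamini-Hochberg), which is 34.5% of all genes, 17.3% in each direction. Most changes were small, and 73.5% of the called genes moved by less than 0.5 on the log2 scale. A rise of at least 0.5 was called for 599 genes and a fall of that size for 486 genes, while 59 genes rose and 34 fell by at least 2-fold. The median change over all tested genes was -0.0040. Values throughout are log2(signal + 16), so that 1 unit is a doubling and the change of dim genes is understated. A gene is said below to separate the groups when its lowest value in one group exceeded its highest value in the other. This held for 39.1% of all tested genes, 19.1% with BKM120 above DMSO and 19.9% with BKM120 below it.

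**Figure D1:**
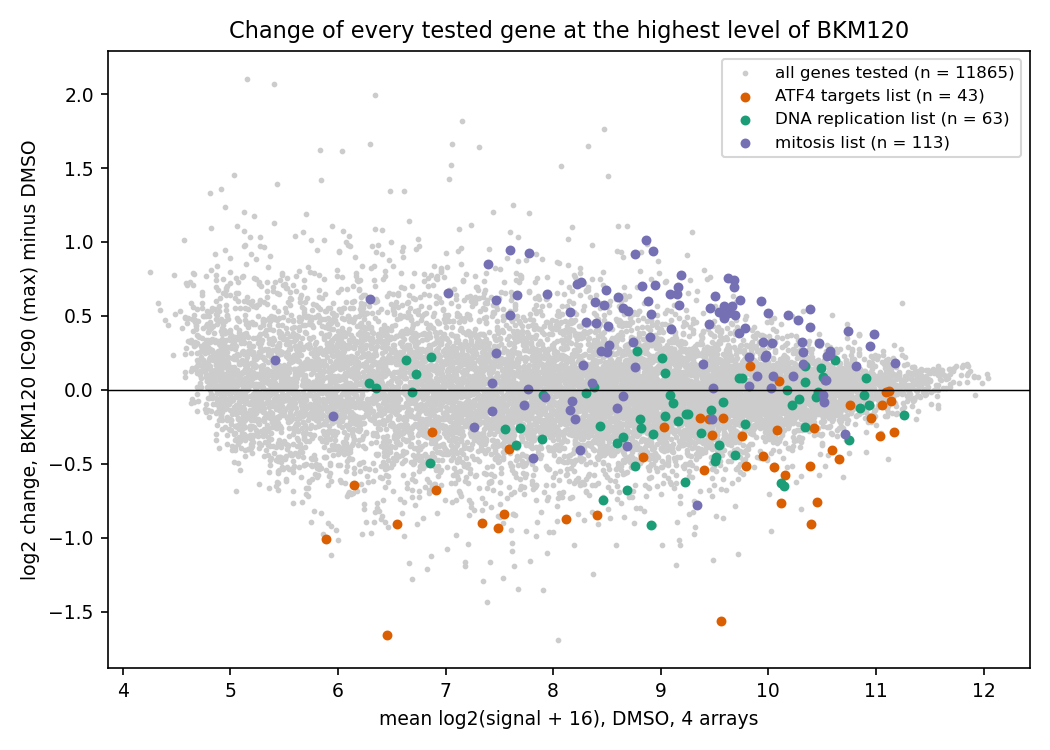
Change at the highest level of BKM120 against the mean level in DMSO, both as log2(signal + 16), for the 11865 genes tested (grey, 1 point per gene). Purple points are the 113 tested genes of the mitosis list, green points the 63 of the DNA replication list and orange points the 43 of the ATF4 target list. Most purple points lie above 0 and most orange points below it.

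The 3' to 5' ratios were close between the groups, while the treated arrays had a smaller share of dim probe sets. The 3' to 5' ratio of the GAPDH control probe sets was 0.232 ± 0.020 (log2, SD, n = 4) at the highest level of BKM120 and 0.205 ± 0.030 in DMSO (exact permutation test, 2-sided, p = 0.229). That of ACTB was 0.825 ± 0.044 and 0.855 ± 0.14 (exact permutation test, p = 0.743). The share of probe sets with a signal of 20 or less was 53.1% ± 0.14 under BKM120 and 54.7% ± 0.96 in DMSO, with all 4 treated arrays lower (exact permutation p = 0.0286, the smallest that 4 against 4 arrays can give, and 0.114 after adjustment over the 4 measures). DMSO replicate 2 stood nearest the treated arrays on that measure, at 53.3%. The median log2 value was 4.974 ± 0.013 under BKM120 and 4.864 ± 0.071 in DMSO (exact permutation test, p = 0.0857). DMSO replicate 2, at 4.968, again stood nearest the treated arrays. Without that array 3659 genes were called, and 73 genes of the mitosis list rose, against 76 with it. The part of these measures in the results was not tested.

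Markers of the melanocyte lineage were present on all arrays. The summed signal of the 9 measured markers lay between 8389 and 8874 in DMSO and between 10450 and 10730 under BKM120, and several of them rose, as given below. Of 18 measured markers of immune, epithelial, endothelial and fibroblast cells, 5 were bright enough to be tested, and 0 rose and 0 fell (limma; 1 rose and 0 fell at an unadjusted p under 0.05). Their summed signal was 1265 to 1486 in DMSO and 1297 to 1411 under BKM120, nearly all of it from LUM, an extracellular matrix gene.

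Of the 25 gene lists, mitosis had the most members that rose. Of 115 listed genes, 113 were tested, and 76 of them rose and 7 fell (67.3% and 6.19%, against 17.3% each of all genes). The median change of the tested members was 0.40, with a range of -0.78 to 1.01. The list was drawn up with earlier results of these arrays known, so its count is not independent evidence of a direction. On single arrays the median of the list, relative to the DMSO mean, lay between 0.38 and 0.42 under BKM120 and between -0.0019 and 0.019 in DMSO. These are bulk RNA measurements, in which more cells in G2 or mitosis and more mRNA per cell cannot be told apart.

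The promoters of these genes are shown first, because the lists of mitosis and of DNA replication differ in short elements that cell-cycle factors are known to bind. Promoters came from RefSeq (GRCh38.p14), as 250 bases before to 50 bases after the start of transcription, and were available for 9780 of the tested genes. The CHR element (letters TTTGAA, either strand) was found in 56 of the 95 mitosis genes with a promoter (58.9%), in 3 of the 57 DNA replication genes (5.26%) and in 9.91% of all tested genes. The CCAAT box was found in 66.3%, 56.1% and 36.9%, and CHR together with CCAAT in 43.2% of mitosis genes and 4.10% of all tested genes. An E2F site (any of TTTCCCGC, TTTCGCGC, TTTGCCGC and TTTGGCGC, either strand) was in 40.4% of replication genes, 7.37% of mitosis genes and 5.46% of all tested genes. By role, CHR was found in 7 of 7 cytokinesis genes and in 15 of 23 kinesin and spindle genes. A match describes letters in a window and is not evidence that a factor was bound.

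The following 4 promoters belong to genes that rose and carry a CHR, and were chosen after the matches were seen. Each is the 250 bases before the start, 5′ to 3′ on the strand of the gene, with the CHR and CCAAT letters (or their reverse complements TTCAAA and ATTGG) in capitals. The genes are CCNB2 (chr15:59104896-59105145, + strand), PLK1 (chr16:23678639-23678888, + strand), CDCA8 (chr1:37692266-37692515, + strand) and GTSE1 (chr22:46296620-46296869, + strand). Read in the direction of the gene, the CHR letters begin 29 bases upstream of the start in CCNB2 and in PLK1, 23 in CDCA8 and 26 in GTSE1.
CCNB2: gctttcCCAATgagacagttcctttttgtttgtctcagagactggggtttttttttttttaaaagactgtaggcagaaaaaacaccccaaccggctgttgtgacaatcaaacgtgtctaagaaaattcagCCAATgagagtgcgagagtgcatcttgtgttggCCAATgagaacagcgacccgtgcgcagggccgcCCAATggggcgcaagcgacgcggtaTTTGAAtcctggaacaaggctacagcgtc
PLK1: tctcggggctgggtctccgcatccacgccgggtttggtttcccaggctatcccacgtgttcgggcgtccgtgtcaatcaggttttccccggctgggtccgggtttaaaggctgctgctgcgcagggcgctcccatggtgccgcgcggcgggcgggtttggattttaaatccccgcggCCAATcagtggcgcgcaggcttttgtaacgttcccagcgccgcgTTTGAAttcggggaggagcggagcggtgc
CDCA8: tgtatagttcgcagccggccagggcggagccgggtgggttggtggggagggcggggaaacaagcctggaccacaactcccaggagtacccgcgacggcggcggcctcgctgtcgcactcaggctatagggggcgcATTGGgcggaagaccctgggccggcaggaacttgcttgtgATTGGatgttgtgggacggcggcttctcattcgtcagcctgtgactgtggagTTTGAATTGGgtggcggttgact
GTSE1: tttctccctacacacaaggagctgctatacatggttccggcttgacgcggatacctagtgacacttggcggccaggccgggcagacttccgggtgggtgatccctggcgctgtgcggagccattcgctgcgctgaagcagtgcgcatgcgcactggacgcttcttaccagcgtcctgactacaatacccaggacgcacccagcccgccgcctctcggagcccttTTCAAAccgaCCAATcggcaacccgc

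The next pair belongs to genes that fell and carry E2F sites, with the E2F and CCAAT letters of either strand in capitals. They are MCM6 (chr2:135876444-135876693, - strand), in which forward and reverse matches overlap at both places, and E2F1 (chr20:33686386-33686635, - strand), with sites that begin 33 and 20 bases upstream of the start.
MCM6: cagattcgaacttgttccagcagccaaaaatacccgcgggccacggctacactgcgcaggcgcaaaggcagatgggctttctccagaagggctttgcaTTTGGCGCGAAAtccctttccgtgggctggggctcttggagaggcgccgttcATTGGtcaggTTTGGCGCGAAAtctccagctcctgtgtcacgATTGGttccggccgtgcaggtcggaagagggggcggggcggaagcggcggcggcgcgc
E2F1: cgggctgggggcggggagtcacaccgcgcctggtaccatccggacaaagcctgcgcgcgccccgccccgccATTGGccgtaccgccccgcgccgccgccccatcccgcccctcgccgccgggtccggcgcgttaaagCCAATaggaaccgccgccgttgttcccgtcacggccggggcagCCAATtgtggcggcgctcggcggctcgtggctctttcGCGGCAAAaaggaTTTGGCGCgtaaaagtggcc
Among genes that changed as much, NEK2, CDC25C and KIF20A had no TTTGAA in the 250 bases before the start. CDC6 and CCNE1 had none of the E2F forms in those 250 bases. The shares given above also count the 50 bases after the start. A match in those 50 bases is therefore not excluded for these genes.

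Most genes of mitotic entry rose. Of 18 tested cyclins, kinases, phosphatases and transcription factors, 14 rose and 2 fell (77.8% and 11.1%, against 17.3% each of all genes). Their median was 0.40. NEK2, a centrosome kinase, read 8.77, 9.16, 8.60 and 8.92 on the DMSO arrays and 10.00, 9.87, 9.87 and 9.76 under BKM120. The groups did not overlap, and NEK2 rose by 1.01 (SE 0.12), a 2.02-fold increase with a limma adjusted p of 2.04e-08. CCNB2, the gene of a B-type cyclin that activates CDK1, went from 9.61, 9.66, 9.75 and 9.71 to 10.44, 10.46, 10.40 and 10.41. Its rise was 0.74 (SE 0.053, adjusted p = 9.5e-14, limma), and its 4 treated arrays lay within a narrow band far above DMSO. PLK1, the kinase that drives many steps of mitosis, read 8.43, 8.45, 8.498 and 8.53 in DMSO and 8.99, 8.98, 9.10 and 9.12 under BKM120, with no overlap, and rose by 0.57 (SE 0.060). CCNB1, the main mitotic cyclin, read 10.93, 10.90, 11.03 and 11.06 in DMSO and 11.37, 11.41, 11.31 and 11.35 under BKM120 and rose by 0.38. The 4 treated arrays again lay above all of DMSO.

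GTSE1, a microtubule-associated protein gene, rose by 0.94 and CDC25C, the phosphatase that activates CDK1, by 0.93. FOXM1, a factor that drives G2 and mitosis genes, rose by 0.41, AURKA (Aurora A) by 0.40 and CCNA2 (cyclin A) by 0.26. A dimmer probe set of CCNA2 changed by 0.61. The exceptions were CDK1 and MYBL2. CDK1, the kinase partner of cyclin B, read 10.53, 10.69, 10.83 and 10.79 in DMSO and 10.46, 10.41, 10.40 and 10.37 under BKM120 and fell by 0.30 (SE 0.093, limma adjusted p = 0.0106). MYBL2, which encodes B-MYB, fell by 0.25, a call that ended without BKM120 replicate 3 (-0.20, adjusted p = 0.0816, limma). Cyclin B mRNA and the mRNA of its kinase therefore moved in opposite directions.

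**Figure D2:**
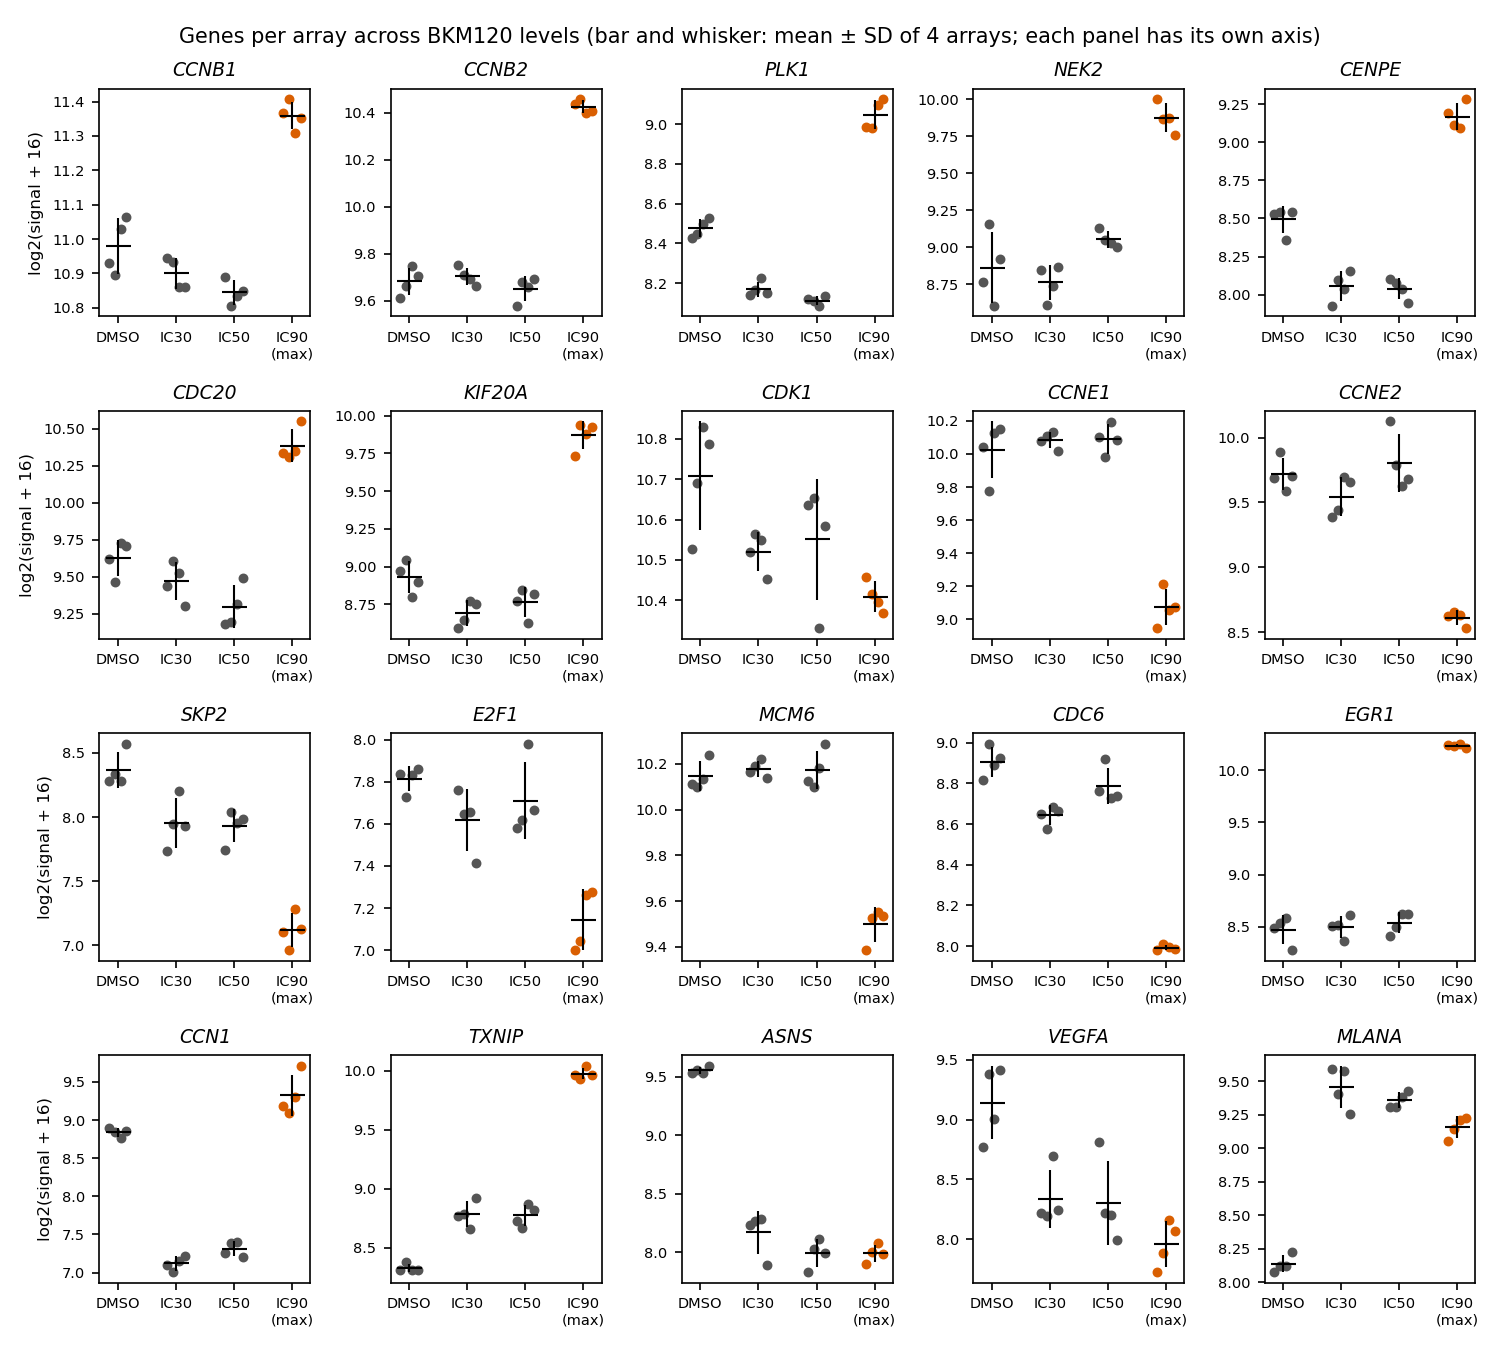
Levels of 20 genes as log2(signal + 16) on each array in DMSO and at the 3 levels of BKM120, with 4 arrays per group (points; bar and whisker are the mean ± SD, and each panel has its own axis). CCNB1, CCNB2, PLK1, NEK2, CENPE, CDC20 and KIF20A are higher on the 4 IC90 (max) arrays (orange) than on every other array shown, and CCNE1, CCNE2, SKP2, E2F1, MCM6 and CDC6 are lower.

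Genes of the kinetochore, the structure that joins chromosomes to microtubules, and of the checkpoint that it signals to rose in part. Of 36 tested, 17 rose and 3 fell (47.2% and 8.33%, against 17.3% each of all genes), with a median of 0.16. CENPA, the histone variant that marks centromeres, had the largest rise, from 7.52, 7.46, 7.25 and 7.37 to 8.27, 8.20, 8.22 and 8.30. The change was 0.85 (SE 0.093, adjusted p = 3.25e-09, limma), with no overlap. NDC80, which holds the microtubule end, rose by 0.70 and CENPE, a kinetochore motor, by 0.67. The checkpoint kinases BUB1 (0.52), BUB1B (0.52) and TTK (0.45) rose too. MAD2L1, which encodes the checkpoint protein MAD2, stood at 0.16 and was not called, except without DMSO replicate 3 (0.21, limma adjusted p = 0.0231). DSN1 and MIS12, subunits of a kinetochore complex, fell by 0.40 and fell by 0.19 on the log2 scale, and ZW10 fell by 0.20. The ZW10 call ended without BKM120 replicate 2 (adjusted p = 0.0575, limma) or DMSO replicate 1 (adjusted p = 0.0628).

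The anaphase-promoting complex (APC/C) is the ubiquitin ligase that ends mitosis. Of 11 tested genes of it and its partners, 6 rose and 1 fell (54.5% and 9.09%, against 17.3% each of all genes). CDC20, its mitotic activator, read 9.62, 9.46, 9.73 and 9.71 in DMSO and 10.34, 10.31, 10.35 and 10.55 under BKM120, so all treated arrays were higher. It rose by 0.76 (SE 0.14, limma adjusted p = 3.71e-05). ESPL1 (separase, which cuts the link between sister chromatids) rose by 0.64, UBE2S by 0.56 and PTTG1 (securin) by 0.30, while UBE2C stood at 0.01 and was not called. FBXO5, which encodes the APC/C inhibitor EMI1 and is an E2F target, read 9.23, 9.41, 9.36 and 9.35 in DMSO and 8.65, 8.59, 8.45 and 8.53 under BKM120. It fell by 0.78 (SE 0.087), the deepest fall in the mitosis list.

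Of 15 genes of the chromosomal passenger complex, condensin and mitotic chromatin, 7 rose and 1 fell (46.7% and 6.67%, against 17.3% each of all genes). CDCA8 (borealin) rose by 0.71, MKI67, the proliferation antigen that coats mitotic chromosomes, by 0.60 and AURKB (Aurora B) by 0.50. BIRC5 (survivin) rose by less, 0.18, with the probe set used. It was not called after quantile normalization (0.12, adjusted p = 0.138, limma). Nor was it called without DMSO replicate 1 or 2 or BKM120 replicate 3 or 4 (0.14 to 0.18, limma adjusted p = 0.0523 to 0.127). Other BIRC5 probe sets changed by 0.29, 0.52 and 0.05. TOP2A, a topoisomerase, was at 0.07 and not called, but was called with the mean over its probe sets (0.29, limma adjusted p = 5.44e-05). NCAPH2, a condensin II subunit, fell by 0.46.

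Motors and spindle proteins moved as a block. All 25 tested members separated the groups with BKM120 above DMSO, against 19.1% of all genes. Of them 24 rose (96%, against 17.3% of all genes), with a median of 0.55. The exception to the call was FAM83D, at 0.26 (limma adjusted p = 0.0686), which was called without BKM120 replicate 3 (0.32, adjusted p = 0.0386). It was also called with 39 arrays, without the BEZ235 IC50 array of degraded RNA (limma adjusted p = 0.0129), and with only the arrays compared (adjusted p = 0.0048). KIF20A, a motor of the central spindle, read 8.97, 9.04, 8.80 and 8.90 in DMSO and 9.74, 9.94, 9.88 and 9.93 under BKM120 and rose by 0.94 (SE 0.13, limma adjusted p = 6.17e-07). KIFC1, a minus-end motor, rose by 0.92, KNSTRN by 0.78, KIF18A by 0.73, KIF2C by 0.71 and ASPM, a spindle pole protein, by 0.70. TPX2, which activates Aurora A, rose by 0.50 and KIF11, the motor that separates spindle poles, by 0.33.

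All 8 tested genes of cytokinesis, the cutting of the cell in 2, rose, against 17.3% of all genes, with a median of 0.50. By the probe sets used, the largest changes were those of DEPDC1B (0.63), ECT2 (0.57), KIF23 (0.53) and PRC1 (0.49), and the smallest that of ANLN (0.27). A second, dimmer probe set of ANLN changed by 0.56. The centrosome list covers duplication and maturation of spindle poles. Of its 13 tested genes 8 rose and 0 fell by limma (0 also at an unadjusted p under 0.05), with a median of 0.35. These were 61.5% and 0%, against 17.3% each of all genes. CEP135 rose by 0.77, CPAP by 0.52, PCNT (pericentrin) by 0.50 and PLK4, the kinase that starts duplication, by 0.53. A second, dimmer probe set of PLK4 changed by 0.12.

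**Figure D3:**
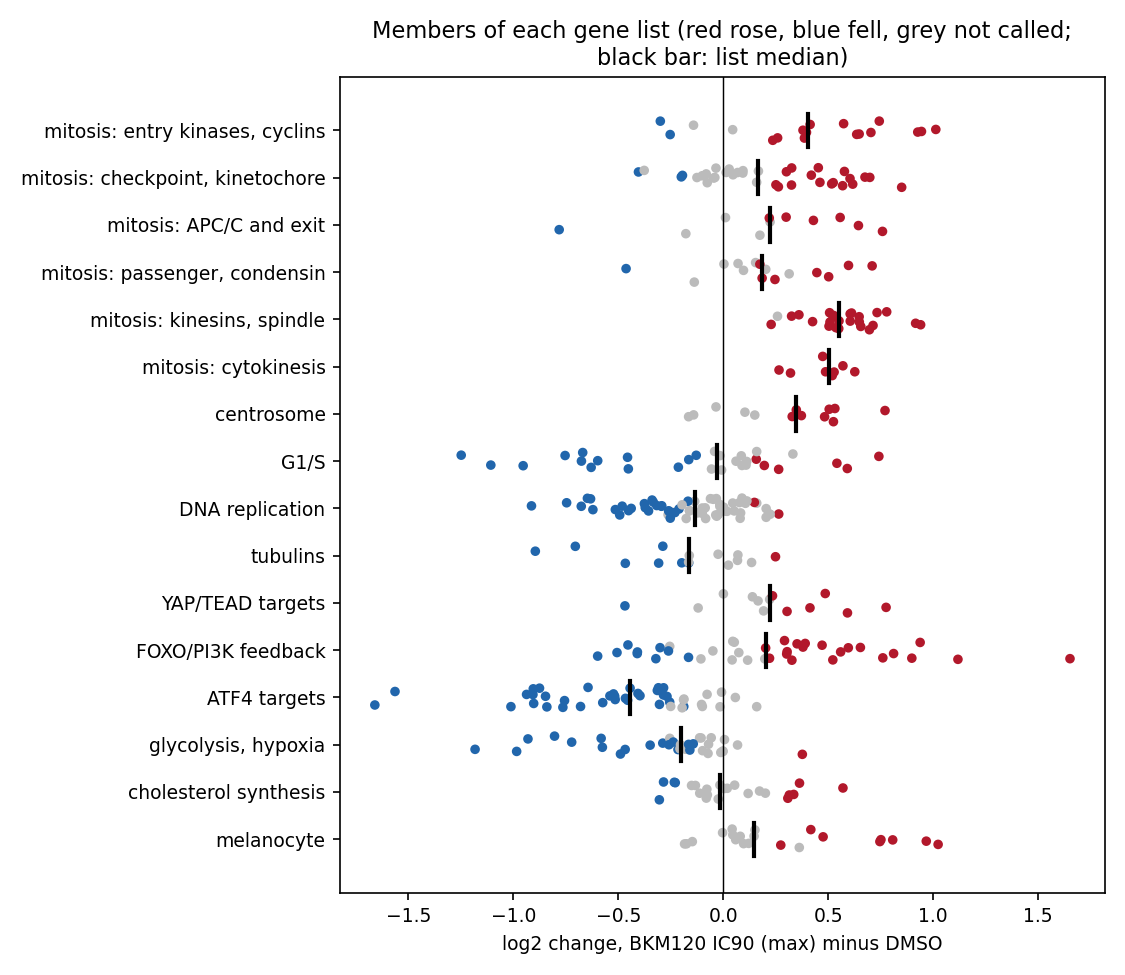
Log2 change at the highest level of BKM120 for every tested member (1 point) of 16 gene groups, coloured red where it rose, blue where it fell and grey where it was not called; the black bar is the median of the group. The 25 kinesin and spindle genes and the 8 cytokinesis genes all lie above 0, with medians of 0.55 and 0.50, and the ATF4 targets have the lowest median, -0.44.

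Among genes of the G1 to S transition more fell than rose. Of 30 tested, 6 rose and 13 fell (20% and 43.3%, against 17.3% each of all genes), 11 were not called and the median was -0.029 (-0.052 with the mean over probe sets). CCNE2 and CCNE1, the genes of both E-type cyclins, had large falls. CCNE2 read 9.69, 9.89, 9.59 and 9.71 in DMSO and 8.63, 8.66, 8.64 and 8.53 under BKM120 and fell by 1.11 (SE 0.11, limma adjusted p = 3.95e-10). CCNE1 went from 10.04, 9.78, 10.13 and 10.15 to 8.95, 9.21, 9.06 and 9.08 and fell by 0.95 (SE 0.070). In both genes every treated array was below every DMSO array. SKP2, the ubiquitin ligase subunit that degrades the CDK inhibitor p27, read 8.28, 8.34, 8.28 and 8.57 in DMSO and 7.11, 6.96, 7.29 and 7.13 under BKM120, and fell by 1.25 (SE 0.11). A brighter SKP2 probe set of a design prone to cross-hybridisation changed by -0.14, and a dimmer one, not of that design, by -0.35. The size of this fall therefore depends on the probe set.

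CDC25A, the phosphatase that activates CDK2, fell by 0.75 and CCND3, a D-type cyclin gene, fell by 0.63. CCND1 (cyclin D1) rose by 0.26. That call ended when dim genes were kept (adjusted p = 0.0745, limma), and without DMSO replicate 1, 2 or 4 or BKM120 replicate 1, 2 or 4 (0.20 to 0.27, adjusted p = 0.0742 to 0.177). Among E2F and RB family genes 7 of 13 fell and 2 rose (53.8% and 15.4%, against 17.3% each of all genes). E2F1, an activator of S phase genes, read 7.84, 7.73, 7.83 and 7.86 in DMSO and 6.999, 7.04, 7.26 and 7.28 under BKM120 and fell by 0.67 (SE 0.11), without overlap. E2F8 fell by 0.68, E2F7 fell by 0.45 and E2F2 fell by 0.46, the last of which was -0.15 and not called with the mean over its probe sets (adjusted p = 0.215, limma). Of the RB relatives, RBL1 (p107), itself an E2F target, fell by 0.60, whereas RBL2 (p130), which represses cell-cycle genes in resting cells, rose by 0.59.

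Of 6 tested CDK inhibitor genes, 2 rose and 0 fell by limma (33.3% and 0%, against 17.3% each of all genes). At an unadjusted limma p under 0.05 the counts were 3 and 0. CDKN1B, which encodes p27 and is a FOXO target, rose by 0.54, from 9.20, 9.25, 9.26 and 9.21 to 9.79, 9.83, 9.69 and 9.77. CDKN3, a CDK phosphatase whose mRNA peaks in mitosis, rose by 0.74. CDKN1A, which encodes the p53 target p21, stood at 0.16 (adjusted p = 0.24) and was not called.

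DNA replication genes fell in part. Of 63 tested, 25 fell and 2 rose (39.7% and 3.17%, against 17.3% each of all genes), with a median of -0.14. The list median on single arrays was -0.11 to -0.17 under BKM120 and -0.038 to 0.027 in DMSO. Among the 17 genes that license replication origins, 6 fell and 1 rose (35.3% and 5.88%, against 17.3% each of all genes). CDC6, which loads the MCM helicase, read 8.82, 8.99, 8.89 and 8.92 in DMSO and 7.98, 8.01, 7.998 and 7.98 under BKM120 and fell by 0.91 (SE 0.086, limma adjusted p = 9.26e-11). MCM6, a helicase subunit, went from 10.11, 10.10, 10.14 and 10.24 to 9.39, 9.53, 9.55 and 9.53 and fell by 0.65 (SE 0.068). The treated arrays of both genes were below all DMSO arrays. MCM3 fell by 0.45 and ORC1 fell by 0.49, and ORC1 lost its call without DMSO replicate 1, 3 or 4 or BKM120 replicate 1, 2 or 4 (-0.38 to -0.49, limma adjusted p = 0.0615 to 0.145) and when dim genes were kept (adjusted p = 0.0588). ORC3 rose by 0.26.

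Among origin firing factors 3 of 10 fell (30%, against 17.3% of all genes), namely TOPBP1 (-0.62), GINS2 (-0.44) and CDC45 (-0.36). Of 23 fork and polymerase genes 11 fell and 1 rose (47.8% and 4.35%, against 17.3% each of all genes). CLSPN (claspin) fell by 0.68, POLD3 fell by 0.51 and PCNA, the sliding clamp, fell by 0.34, while RPA3 rose by 0.15. The RPA3 call ended without DMSO replicate 4 or BKM120 replicate 3 (0.13 in both, limma adjusted p = 0.0639 and 0.0567). In nucleotide supply and repair UNG, which removes uracil from DNA, fell by 0.63. It was the 1 call among 6 genes (16.7%, near the 17.3% of all genes that fell), and their median was 0.03. Of 7 genes that copy chromatin 4 fell (57.1%, against 17.3% of all genes). They were led by CHAF1B, a histone chaperone subunit, which fell by 0.75, and SLBP, which binds histone mRNA and fell by 0.48.

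Tubulin genes were of interest because BKM120 can bind their product. Of 15 tested, 7 fell and 1 rose (46.7% and 6.67%, against 17.3% each of all genes), with a median of -0.16 that lay between -0.23 and -0.025 over the 9 processing alternatives. With genes above the 60th percentile of signal, 4 of 11 fell. Tubulin genes also fell under the other inhibitors at IC90 against the same DMSO arrays, 8 of 15 under GDC0941 (median -0.155) and 12 of 15 under BEZ235 (median -0.56), where 9.97% and 24.1% of all genes fell. TUBB2B, a beta-tubulin best known from neurons, had the largest fall. It read 9.22, 9.25, 9.19 and 8.93 in DMSO and 8.33, 8.18, 8.22 and 8.28 under BKM120 and fell by 0.90 (SE 0.083, limma adjusted p = 6.74e-11). TUBA4A fell by 0.70, TUBB4A fell by 0.47, TUBB2A fell by 0.31, TUBE1 fell by 0.29, TUBA1C fell by 0.20 and TUBB fell by 0.16. TUBD1 (delta-tubulin) rose by 0.25.

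The other 7 tested tubulins were not called. They were TUBG1 (-0.17), TUBB1 (-0.16), TUBA1A (-0.02), TUBB4B (0.02), TUBG2 (0.07), TUBB3 (0.07) and TUBB6 (0.13). The falls of TUBE1, TUBA1C and TUBB were small, and that of TUBE1 lost its call when dim genes were kept (limma adjusted p = 0.0749) and with the mean over probe sets (-0.10, adjusted p = 0.295). It was also lost with a pseudocount of 1 (adjusted p = 0.0514) and without any BKM120 array or DMSO replicate 2 or 3 (-0.23 to -0.31, adjusted p = 0.0522 to 0.161). Tubulin sequences are close to each other, so probe sets of this family may share signal. Of 18 genes of tubulin folding and microtubule binding, 3 rose and 3 fell, 16.7% each, which is near the share of all genes. They include STMN1 (stathmin, 0.31), MAP1B (-0.38) and TBCC (-0.58).

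**Figure D4:**
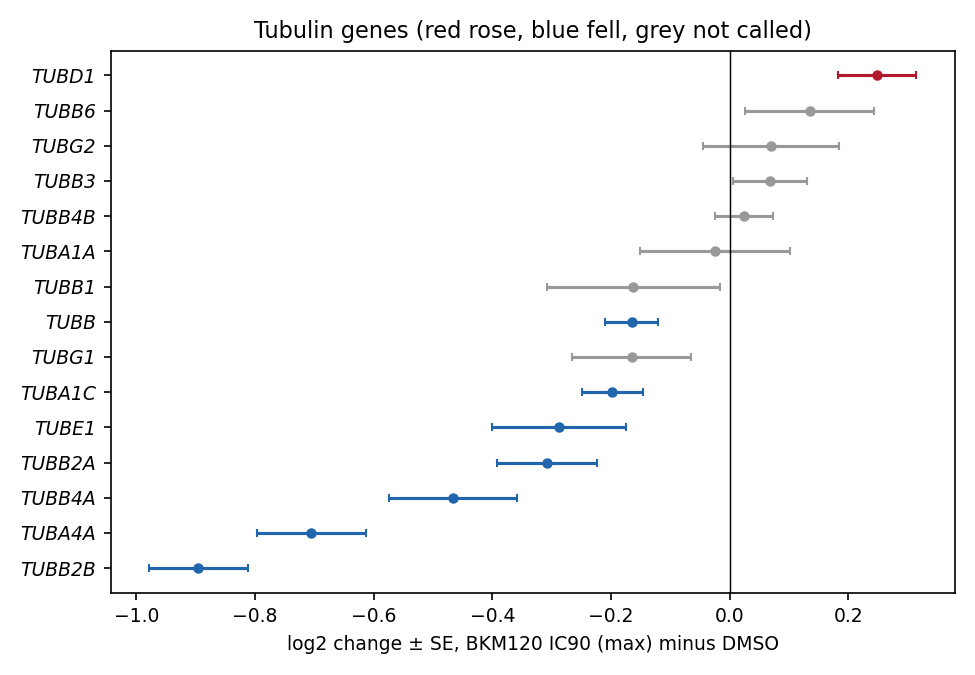
Log2 change at the highest level of BKM120 against DMSO for the 15 tested tubulin genes, ordered by size (points; bars are the SE from limma, 4 arrays per group). Blue points fell, red points rose and grey points were not called; TUBB2B lies lowest at -0.90 and TUBD1 highest at 0.25.

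Immediate early genes, which respond within minutes to growth factors and to stress, rose in part. Of 25 tested, 9 rose and 3 fell (36% and 12%, against 17.3% each of all genes). EGR1, a zinc finger factor, stood out. It read 8.49, 8.53, 8.59 and 8.28 in DMSO and 10.24, 10.24, 10.26 and 10.21 under BKM120, 3.4-fold higher, and rose by 1.77 (SE 0.075, limma adjusted p = 4.24e-20). NR4A2 rose by 1.02 and NR4A3, a related nuclear receptor gene, by 0.66. FOSL1, an AP-1 subunit, rose by 0.91, SRF by 0.51 and FOS by 0.46, while JUN was at 0.03 and not called. KLF4 fell by 0.63 by its brighter probe set and changed by -0.12 by another.

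YAP and TEAD, the effectors of the Hippo pathway, drive genes that respond to adhesion and tension. Of 13 tested targets 6 rose and 1 fell (46.2% and 7.69%, against 17.3% each of all genes), with a median of 0.22. CCN1, a matrix signalling gene, read 8.89, 8.84, 8.76 and 8.85 in DMSO and 9.19, 9.09, 9.30 and 9.71 under BKM120 and rose by 0.49 (SE 0.12). FSTL1 rose by 0.78, LATS2, a Hippo kinase that is also a target, by 0.59 and DLC1 by 0.41. CCN2 was at 0.14 and not called, and F3 (tissue factor) fell by 0.47.

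The list of FOXO factors, their targets and PI3K feedback genes held 20 of 39 that rose and 9 that fell, with a median of 0.20. These were 51.3% and 23.1%, against 17.3% each of all genes. Receptors and adaptors are normally held down by active PI3K through feedback. Of 8 tested genes of this role, 5 rose and 1 fell (62.5% and 12.5%, against 17.3% each of all genes). IRS1 rose by 0.52, IGF1R by 0.47 and IRS2 by 0.30. Other IGF1R probe sets above the filter changed by 0.05, 0.62 and 0.63, and other IRS1 sets by 0.18 and 0.49. Among PI3K subunits PIK3R1, the main regulatory subunit, fell by 0.60 and PIK3R3 fell by 0.41, while the catalytic subunit gene PIK3CD rose by 0.33. The PIK3R3 call ended without DMSO replicate 2 or 3 or BKM120 replicate 1 or 2 (-0.36 to -0.42, limma adjusted p = 0.0527 to 0.095).

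Of 21 FOXO targets 12 rose and 5 fell (57.1% and 23.8%, against 17.3% each of all genes). TXNIP, an inhibitor of thioredoxin and of glucose uptake that is also driven by the sugar sensor MondoA, read 8.31, 8.38, 8.31 and 8.31 in DMSO and 9.97, 9.93, 10.04 and 9.97 under BKM120. It rose by 1.65 (SE 0.055, limma adjusted p = 1.7e-23), with a wide gap between the groups. KLHL24 rose by 1.12, CCNG2, a cyclin-like brake on the cell cycle, by 0.94, YPEL3 by 0.90, BCL6 by 0.76 and HBP1 by 0.65. Another, dimmer probe set of HBP1 changed by 0.05. SESN3 fell by 0.41 and SESN1 fell by 0.45, so FOXO targets did not move as a single block. Of 18 AKT and mTOR core genes 2 rose and 1 fell (11.1% and 5.56%, against 17.3% each of all genes). The counts were 5 and 1 with the mean over probe sets, and 4 and 2 with 39 arrays. DEPTOR, an mTOR inhibitor gene, rose by 0.66 (0.25 and not called with the mean over its probe sets, limma adjusted p = 0.062), TSC2 by 0.37, and DDIT4 was at -0.02 and not called.

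Targets of ATF4, the factor that adjusts amino acid supply to stress and to mTORC1 activity, were the group with the lowest median, -0.44. Of 43 tested, 32 fell and 0 rose (limma; 34 and 0 at an unadjusted p under 0.05; 74.4% fell, against 17.3% of all genes). ASNS, asparagine synthetase, read 9.53, 9.56, 9.53 and 9.59 in DMSO and 7.90, 8.01, 8.08 and 7.98 under BKM120 and fell by 1.56 (SE 0.10, adjusted p = 1.67e-14). CHAC1, which degrades glutathione, went from 6.33, 6.80, 6.30 and 6.39 to 4.85, 4.75, 4.82 and 4.77 and fell by 1.66 (SE 0.12). Both genes were lower on every treated array than on any DMSO array.

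Amino acid synthesis genes contributed 9 falls of 10, including CTH (-0.94), PSAT1 of the serine pathway (-0.91), CBS (-0.88) and MTHFD2 of one-carbon metabolism (-0.76). Transporters contributed 5 of 8, with SLC1A5, which imports glutamine, at -0.85 and SLC7A11, which imports cystine, at -0.76. Aminoacyl-tRNA synthetase genes contributed 9 of 12, of which WARS1 was lowest at -0.57. Stress regulators contributed 9 of 13, among them STC2 (-1.01), NUPR1 (-0.91), TRIB3 (-0.90) and SESN2 (-0.64). In this order, 90%, 62.5%, 75% and 69.2% of the tested genes of these roles fell, against 17.3% of all genes. ATF4 mRNA itself was at -0.08 and was not called here, and was called at -0.13 after quantile normalization (adjusted p = 0.00756).

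In glycolysis and the hypoxia response 17 of 33 tested genes fell and 1 rose, with a median of -0.20. These were 51.5% and 3.03%, against 17.3% each of all genes. VEGFA, a growth factor for blood vessels, read 8.77, 9.38, 9.001 and 9.41 in DMSO and 7.72, 7.89, 8.16 and 8.07 under BKM120 and fell by 1.18 (SE 0.18, limma adjusted p = 3.18e-06). The DMSO arrays were spread widely, but the groups did not overlap. ALDOC fell by 0.98, PDK1 (pyruvate dehydrogenase kinase 1) fell by 0.93, BNIP3 fell by 0.80 and P4HA2 fell by 0.72. HK2 (hexokinase 2) fell by 0.58 by the probe set used, but 2 others changed by 0.038 and -0.13. GAPDH stood at -0.0018 and was not called (-0.092 after quantile normalization, limma adjusted p = 0.0121), and the histone demethylase gene KDM3A rose by 0.38.

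In lipid metabolism 6 of 17 fatty acid and glycerolipid genes fell and 3 rose (35.3% and 17.6%, against 17.3% each of all genes). MFSD2A, a lysophospholipid transporter gene, had the deepest fall of all tested genes. It read 8.10, 7.94, 8.01 and 8.13 in DMSO and 6.20, 6.25, 6.44 and 6.53 under BKM120 and fell by 1.69 (SE 0.096, limma adjusted p = 2e-16). ME1 (malic enzyme) fell by 1.01 and ACSL1 fell by 0.52. Of 23 cholesterol genes 5 rose and 4 fell, a share near that of all genes in each direction. SREBF2, the master factor of the pathway, rose by 0.57, while HMGCS1 (0.05) and SQLE (-0.11) were not called. Ribosome biogenesis genes showed 11 falls and 0 rises among 35 by limma (18 and 3 at an unadjusted p under 0.05). These were 31.4% and 0%, against 17.3% each of all genes. The fit of 39 arrays without the BEZ235 IC50 array of degraded RNA gave 19 falls and 2 rises. RRP12 was at -0.62 and TAF1D at -0.90.

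Some pigment cell genes rose. Of 21 tested melanocyte genes 8 rose and 0 fell by limma (12 and 2 at an unadjusted p under 0.05), with a median of 0.15. These were 38.1% and 0%, against 17.3% each of all genes. With the mean over probe sets 9 rose and 2 fell, with a median of 0.081. MLANA, a melanosome antigen, read 8.08, 8.12, 8.12 and 8.23 in DMSO and 9.06, 9.14, 9.21 and 9.23 under BKM120 and rose by 1.02 (SE 0.066, adjusted p = 7.85e-15). TRPM1 rose by 0.97, MLPH by 0.81, TYRP1 by 0.75 and PMEL by 0.48. TYR (tyrosinase) rose by 0.75 with the probe set used and changed by -0.24 with another, dimmer set. The lineage factors MITF (0.10) and SOX10 (0.15) were not called in the main fit, and PAX3 rose by 0.42. Dimmer PAX3 probe sets changed by 0.35 and, in a design prone to cross-hybridisation, by -0.0019. SOX10 was called at 0.13 after quantile normalization (limma adjusted p = 0.0177) and at 0.17 with the mean over probe sets (adjusted p = 0.0155). It was also called with 39 arrays (limma adjusted p = 0.00152). MITF was called at 0.14 without DMSO replicate 3 (limma adjusted p = 0.00876). Of 21 genes linked to the dedifferentiated melanoma state 5 rose and 3 fell (23.8% and 14.3%, against 17.3% each of all genes). SOX9 was lowest at -0.50.

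Of 15 tested BCL2 family genes 3 rose and 4 fell (20% and 26.7%, against 17.3% each of all genes). PMAIP1, which encodes the death-promoting protein NOXA, read 9.56, 9.68, 9.86 and 9.67 in DMSO and 9.03, 8.90, 8.90 and 8.80 under BKM120 and fell by 0.78 (SE 0.12). BCL2L11 (BIM) fell by 0.51 and BAD fell by 0.39, though BAD was at -0.071 and not called with the mean over its probe sets (limma adjusted p = 0.369). BMF, a death-promoting FOXO target, went from 4.60, 4.92, 5.01 and 4.74 to 5.27, 5.61, 5.89 and 5.74 and rose by 0.81 (SE 0.12). BMF passed the signal filter, a mean of 4.89 over all arrays, only through treated arrays, since its DMSO mean was 4.82. BCL2, a survival gene, rose by 0.47 and BAX, which permeabilises mitochondria, by 0.39, while BAK1 fell by 0.24 and MCL1 was at 0.04. The BAK1 call ended without DMSO replicate 1 or BKM120 replicate 3 (-0.18 and -0.20, limma adjusted p = 0.0936 and 0.0731).

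Among 23 tested p53 targets 2 rose and 6 fell (8.7% and 26.1%, against 17.3% each of all genes). ZMAT3 fell by 0.68 and TIGAR, which redirects glucose carbon, fell by 0.61, while TP53INP1 rose by 0.45 and MDM2, the negative regulator of p53, was at -0.12. In the NF-kB and cytokine list 5 of 19 rose and 7 fell (26.3% and 36.8%, against 17.3% each of all genes). IL24, a cytokine of the IL-10 family, read 7.05, 6.91, 6.90 and 7.26 in DMSO and 8.34, 8.43, 8.57 and 8.49 under BKM120 and rose by 1.43 (SE 0.085, limma adjusted p = 6.91e-16). IL7R, a cytokine receptor gene, fell by 1.28, CCL2 fell by 0.63 and CXCL3 rose by 0.58. Of 30 interferon-stimulated genes 6 rose and 8 fell (20% and 26.7%, against 17.3% each of all genes), from GBP2 (-0.64) to OAS3 (0.57). Of 44 lysosome and autophagy genes 15 rose and 5 fell (34.1% and 11.4%, against 17.3% each of all genes). CTSF (cathepsin F) rose by 1.61, ULK1, the kinase that starts autophagy, by 0.79, GAA by 0.66 and CTSD by 0.49. GLA, a lysosomal galactosidase, fell by 0.68. The 16 genes of MAPK output held 2 that rose and 2 that fell, 12.5% each, below the share of all genes.

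The largest rises over all genes were those of NT5DC4 and EBLN2. NT5DC4, a nucleotidase-like gene, read 4.98, 5.24, 5.22 and 5.18 in DMSO and 7.22, 7.21, 7.33 and 7.27 under BKM120 and rose by 2.10 (SE 0.11, limma adjusted p = 1.32e-17). EBLN2, a gene derived from an ancient bornavirus insertion, read 5.58, 5.36, 5.21 and 5.46 in DMSO and 7.47, 7.37, 7.64 and 7.42 under BKM120 and rose by 2.07 (SE 0.13). A2M, a secreted protease inhibitor, read 6.41, 6.32, 6.14 and 6.501 and 8.32, 8.27, 8.27 and 8.47 and rose by 1.99 (SE 0.13). The groups were apart by more than their own ranges in all 3 genes, by the probe sets used. Other probe sets, below the signal filter, changed by 0.03 and 0.11 for NT5DC4 and by -0.29 for A2M.

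Other genes among the 20 largest rises were GTF2H2B (1.82), SNORA21 (1.66), OSER1-DT (1.64), EIF3C, a translation initiation subunit (1.62), RTN2 (1.52), ARF1 (1.45), UBALD2 (1.44), TRAPPC6A (1.36), PIF1, a DNA helicase (1.35), DACT1 (1.34), TESMIN (1.33) and SELENOP (1.24). RAB11FIP3 stood at 1.66 by its brightest probe set and at 0.051 by another. ARF1 and EIF3C each had a single usable probe set, which was dim in DMSO (5.04 and 5.83). TESMIN, at 4.81 in DMSO, lay below the filter floor of 4.89 there and passed it only through treated arrays. The largest falls outside the groups above were those of KCNG4 (-1.43), MAP2K6, a kinase that activates p38 (-1.35), MARS2, the mitochondrial methionyl-tRNA synthetase (-1.34), VCAN, a matrix proteoglycan (-1.29) and NEFL, a neurofilament (-1.27). ADAMTS1 (-1.19), FGFBP3 (-1.16), ENPP2, which makes lysophosphatidic acid (-1.15), BANK1 (-1.12), SOX2, a neural and stem cell factor (-1.10), MDGA2 (-1.09) and MYB (-1.08) followed. TRNAU1AP fell by 1.15 with the probe set used, while 3 others changed by 0.32, 0.21 and -0.18.

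The next question was which of these changes were already present at the level below. At IC50, 1489 genes rose and 871 fell against DMSO (12.5% and 7.34%, 19.9% in all), and at IC30 the counts were 1550 and 969 (13.1% and 8.17%, 21.2% in all). These comparisons share the DMSO arrays with the one above, so the difference between levels was tested directly. Between IC90 (max) and IC50, 1643 genes were higher at IC90 (max) and 2490 lower (limma, 13.8% and 21.0% of all genes, 34.8% in all).

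The median of the mitosis list was above DMSO at IC90 (max) and below it at the lower levels. Of the 113 tested genes of the list, 84 were higher at IC90 (max) than at IC50 and 8 lower (74.3% and 7.08%), with a median difference of 0.52. Against DMSO, 2 members rose and 27 fell at IC50, and 0 rose and 26 fell at IC30 (limma; 2 and 44 at an unadjusted p under 0.05), with a median of -0.12 at both levels. The list median was -0.11 to -0.15 on the single arrays of IC30, -0.11 to -0.12 on those of IC50 and 0.38 to 0.42 on those of IC90 (max). PLK1 read 8.12, 8.11, 8.08 and 8.14 at IC50 and was 0.94 (SE 0.060, adjusted p = 3.65e-15, limma) higher at IC90 (max). MKI67 changed by -0.62 at IC50 and by 0.60 at IC90 (max), a difference of 1.21.

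**Figure D5:**
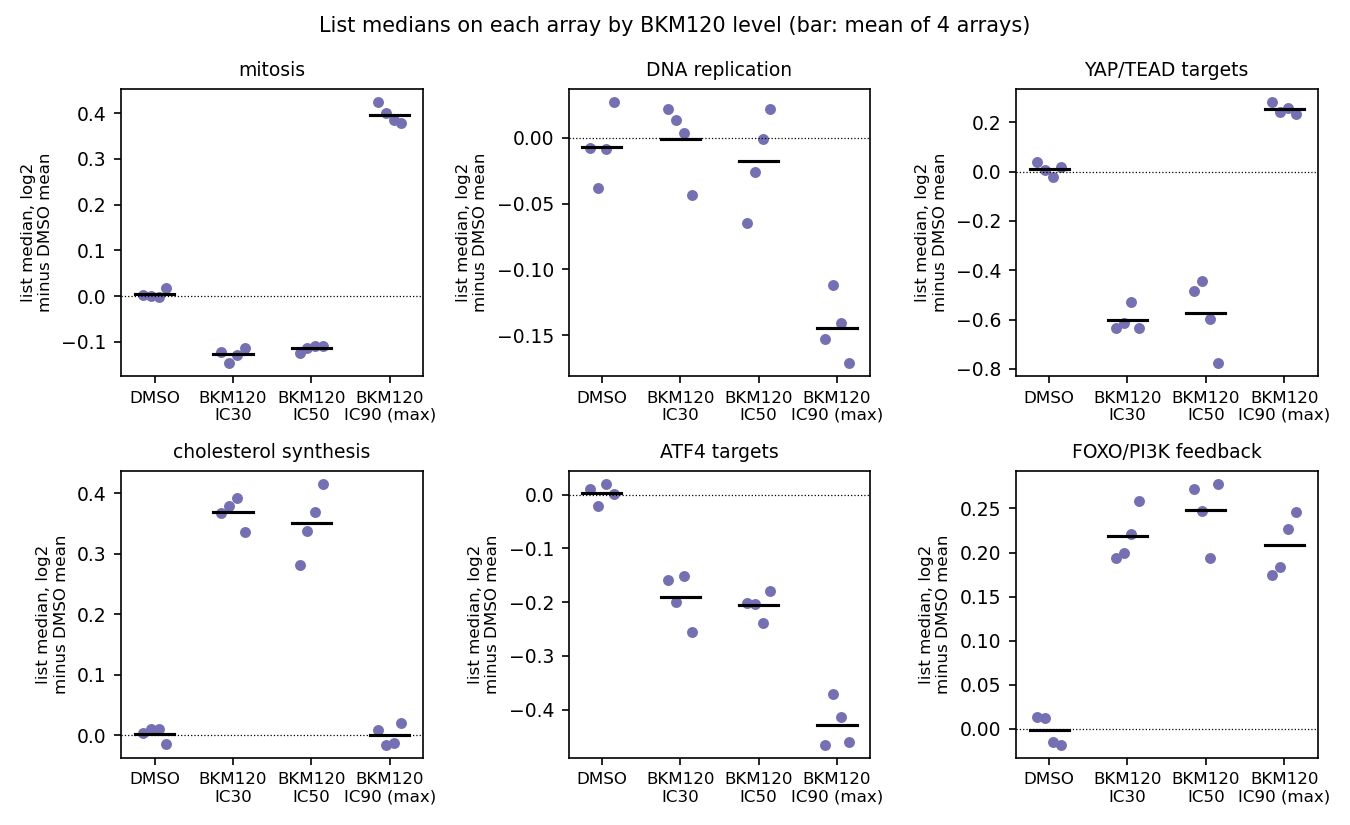
Median over 6 gene lists on each array, as log2 minus the DMSO mean of each gene (points; the bar is the mean of 4 arrays), in DMSO and at IC30, IC50 and IC90 (max) of BKM120. The mitosis median is 0.38 to 0.42 on the IC90 (max) arrays and below 0 at the lower levels, and the cholesterol median is raised at the lower levels and near 0 at IC90 (max).

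For DNA replication 21 of 63 genes were lower at IC90 (max) than at IC50 and 3 higher. These were 33.3% and 4.76%, against 21.0% and 13.8% of all genes. Against DMSO 4 replication genes fell and 3 rose at IC50. CCNE1 changed by 0.06 at IC50, and its log2 difference, IC90 (max) minus IC50, was -1.02 (adjusted p = 2.49e-14, limma). YAP and TEAD targets differed in direction against DMSO: 11 of 13 fell at IC50 (median -0.55), and 11 were higher at IC90 (max) than at IC50 with 0 lower (limma; 0 also at an unadjusted p under 0.05; median difference 0.84). CCN1 read 7.26, 7.38, 7.41 and 7.21 at IC50, more than 1 unit below every DMSO array, and 2.01 (SE 0.12) higher at IC90 (max). JUN moved by -1.09 at IC50 and was 1.11 higher at IC90 (max), and FOSL1 was 1.74 higher. Of 21 dedifferentiation genes 11 were higher at IC90 (max) than at IC50 and 1 lower. These were 52.4% and 4.76%, against 13.8% and 21.0% of all genes.

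Most cholesterol genes rose at the lower levels. At IC50, 17 of 23 rose and 0 fell against DMSO (limma; 17 and 1 at an unadjusted p under 0.05; median 0.31). Of these 23 genes 14 were lower at IC90 (max) than at IC50 and 0 higher (limma; 15 and 0 at an unadjusted p under 0.05; median difference -0.35). HMGCS1 changed by 0.54 at IC50 and 0.05 at IC90 (max), a difference of -0.48 (adjusted p = 4.19e-09, limma). The FOXO and feedback list had a median of 0.23 at IC50 and 0.20 at IC90 (max), with 18 and 20 rises and 3 and 9 falls against DMSO. Tested directly, 7 of its 39 genes were higher at IC90 (max) than at IC50 and 12 lower (17.9% and 30.8%, against 13.8% and 21.0% of all genes). CCNG2 changed by 0.96 at IC50 and 0.94 at IC90 (max), and YPEL3 by 0.98 and 0.90. TXNIP went further, from 0.45 at IC50 to 1.65, and BCL2L11 turned from 0.45 to -0.51, a difference of -0.96 (adjusted p = 5.88e-09, limma). Of the ATF4 targets 20 of 43 fell at IC50 (median -0.22), and 20 were lower at IC90 (max) than at IC50 with 0 higher (limma; 21 and 1 at an unadjusted p under 0.05). ASNS was as low at IC50 (-1.56) as at IC90 (max) (-1.56). The largest rises, NT5DC4 and EBLN2, changed by -0.23 and -0.09 at IC50.

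Finally, the highest level of BKM120 was set against the other inhibitors at the level with the same name, IC90. The labels do not say whether these levels match in their effect on PI3K. Against GDC0941 at IC90, 1388 genes were higher under BKM120 and 2176 lower (11.7% and 18.3% of all genes). Against BEZ235 at IC90 the counts were 2195 and 3165 (18.5% and 26.7%, 45.2% in all). Of the mitosis list 92 of 113 genes were higher under BKM120 than under GDC0941 and 5 lower, with a median difference of 0.67. Against BEZ235, 96 were higher and 4 lower, with a median difference of 0.72. Against the DMSO arrays, which these comparisons share with the first one, most genes of the list fell under both other compounds. Under GDC0941, 1 of its genes rose and 69 fell (median -0.25), where 15.2% and 9.97% of all genes rose and fell, 25.2% in all. Under BEZ235 4 rose and 81 fell (median -0.40), against 30.8% and 24.1%, 55.0% in all. All 25 motor and spindle genes and all 8 cytokinesis genes were higher under BKM120 than under either compound.

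NEK2 was 1.25 (SE 0.12) above GDC0941 and 0.98 above BEZ235, and CCNB2 was 0.87 and 0.66 above them. Of 63 DNA replication genes 18 were lower under BKM120 than under GDC0941 and 7 higher. These were 28.6% and 11.1%, against 18.3% and 11.7% of all genes. Against BEZ235, 18 were lower and 24 higher (28.6% and 38.1%, against 26.7% and 18.5% of all genes). The share higher than under GDC0941 and the share lower than under BEZ235 were thus near those of all genes. Of the 15 tubulins, 3 were higher and 3 lower under BKM120 than under GDC0941 (20% each, against 11.7% and 18.3% of all genes). Against BEZ235, 9 were higher and 1 lower (60% and 6.67%, against 18.5% and 26.7% of all genes). CCNE1 was -1.04 relative to GDC0941 and -0.76 relative to BEZ235 (log2 differences, limma adjusted p = 1.32e-14 and 2.16e-11). EGR1 was 1.44 above GDC0941 and 1.21 above BEZ235.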

How the data were processed

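Per the labels' protocols, 50 ng of total RNA was amplified, labelled with biotin and put on arrays of 54675 probe sets. The authors deposited 1 linear intensity per probe set and array, from MAS5 per the submitters' processing notes, which give no version here. Outside the top and bottom 2% of probe sets, each array averaged 150. Of the probe sets, 41091 carried 1 gene symbol, 1801 several (not used) and 11783 none. They named 19775 genes, and 19735 symbols matched RefSeq. The brightest probe set of each gene was taken, cross-hybridising designs last, and 11865 genes, those past the 40th percentile by mean over all arrays, were tested as log2(value + 16). The 40 arrays were fitted in 1 model of 10 groups (limma 3.58.1, R 4.3.3, trended eBayes, 30 residual degrees of freedom, Benjamini-Hochberg). Alternatives were the pseudocount (1, 64), the filter, quantile normalization, the mean over probe sets, 39 arrays, only the arrays compared, the replicate block and each array left out.

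The 25 lists (759 genes, 677 tested), the comparison and its members were chosen with earlier results of these data known. Genes were named by rule: the 20 largest separated changes each way without placeholder symbols, up to 6 members per list or role in each direction, and all tubulins and BCL2, G1/S, AKT/mTOR and marker genes. Lists carry no test of their own. The fit was tested on simulated data. No array was left out unless stated.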

Additional observations from a re-analysis of the deposited data

Results flagged for a closer look

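For each gene named above, and for the medians of the mitosis and DNA replication lists, the 4 values of each group were checked for 1 array far from the other 3 (Dixon's ratio, the gap to the nearest array over the whole range, above its critical value for 4 values). This picked out 31 of 448 groups of values (6.92%), where chance alone gives about 1 in 20.

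DMSO replicate 2 was picked out 11 times. It was the highest array for ENPP2 (ratio 0.976), TXNIP (0.968), DEPTOR (0.869), SNORA21 (0.851) and ECT2 (0.836). It was the lowest for STMN1 (0.919), ORC1 (0.901), UBE2C (0.853), TUBB4B (0.840), MYBL2 (0.832) and SLC7A11 (0.831). DMSO replicate 3 was lowest for GINS2 (0.937), CENPE (0.923) and ADAMTS1 (0.832) and highest for CCL2 (0.864). DMSO replicate 4 was highest for MAP2K6 (0.924) and MCL1 (0.903) and lowest for TUBB2B (0.831).

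At the highest level of BKM120, replicate 3 was picked out 6 times. It was the lowest array for the 3 tubulin genes TUBB4B (0.907), TUBB3 (0.855) and TUBB (0.833) and for FAM83D (0.858), and the highest for TRIB3 (0.909) and KCNG4 (0.896). Replicate 4 was lowest for MDGA2 (0.907), TYRP1 (0.885) and PMEL (0.835) and highest for UBALD2 (0.901). Replicate 1 was highest for ACSL1 (0.937) and lowest for MCM6 (0.861), and replicate 2 was lowest for SRF (0.840). In 30 of these 31 cases the gene stayed on the same side of the threshold when the array was left out. The exception was FAM83D, which rose by 0.32 (limma adjusted p = 0.0386) without BKM120 replicate 3.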

How the results depend on the processing

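For BKM120 IC90 (max) against DMSO, the count of 4097 called genes ranged from 2767 (1306 rose, 1461 fell; genes above the 60th percentile of signal, where fewer were tested) to 5195 (39 arrays, without an array of BEZ235 at IC50 with degraded RNA), and from 3572 to 3783 when 1 of the 8 arrays was left out. The mitosis genes that rose numbered 72 to 80 and the replication genes that fell 22 to 32 over all alternatives. The counts of calls against BKM120 at IC50 and against BEZ235 at IC90 stayed within 1.5 times their values above. Against GDC0941 at IC90 the count went from 3564 to 2343 (878 higher, 1465 lower) with the 7910 genes above the 60th percentile, a test of fewer genes. The near-even split of rises and falls turned either way between alternatives. Over 3721 repeats no named gene changed sign where the main fit or the repeat called it. Uncalled genes could change sign, as TUBB4B (-0.02) and UBE2C (-0.03) did without DMSO replicate 2. In at least 1 repeat 12 genes lost and 8 gained a call. TUBG1 and SOX10 were called when only the arrays compared were fitted (adjusted p = 0.0208 and 0.0101, limma). Replicate numbers did not pair the arrays: same-numbered deviations correlated at -0.044, 0.071, -0.078 and 0.0072, and 1 of 4 treated arrays correlated best with its own number. With the replicate block 4053 genes were called (2020 rose, 2033 fell), with 76 mitosis genes that rose and 25 replication genes that fell, and CCND1 and TUBE1 were not called (adjusted p = 0.0517 and 0.0524, limma). Dim genes limit the detail: below a signal near 16 a change is compressed, and in a test on simulated data for this comparison (11865 genes, 200 changed) 82% of changes of 0.5 and 100% of changes of 1 were recovered, with 11 false calls.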
